A study of Homo sapiens with 6 samples.

Results

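DNA mismatch repair genes were followed in the RNA of untreated WT and ARID1A-KO AID-DIvA cells. The genes were MSH3, MSH6, MLH3, PMS1, PMS2 and EXO1, chosen by name for their place in the pathway, and they are 6 of the 57820 genes in the tables. All 6 had enough reads to be tested, among 19599 genes tested in all. AID-DIvA is a derivative of the osteosarcoma line U2OS that carries the AsiSI nuclease under hormone control with an auxin-dependent degron, and the nuclease was not switched on in these samples. There were 3 WT samples and 3 ARID1A-KO samples, numbered 3, 4 and 5 in both genotypes. ARID1A is the DNA-binding subunit of a SWI/SNF chromatin remodeller, and it was disrupted with Cas9 and 2 guides, after which knockout clones were established. How many clones were sequenced is not given in the sources used here, so that loss of ARID1A and other differences between the cell populations cannot be told apart. The labels do not say that the samples of one genotype were separate cultures. The paper describes the data of its figures with RNA sequencing as biological replicates, from independent experiments. How the cultures of one genotype were kept apart is not described there. The p-values therefore measure the spread between these samples only.

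Mismatch repair corrects bases that the replicative polymerases paired wrongly and small loops left by slippage at repeats. MutS dimers find the error. MSH6 gives a dimer its preference for base mismatches and very short loops, and MSH3 gives one its preference for longer loops, for which both share a partner subunit not analysed here. MutL dimers are then recruited. PMS2 and MLH3 each carry an endonuclease site, with the PMS2 dimer doing most of the repair in dividing cells and the MLH3 dimer known best from meiotic crossovers, whereas no endonuclease activity is known for PMS1. EXO1 is the exonuclease that removes the strand with the error, after which polymerase delta and its clamp fill the gap.

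PMS2 and MLH3 rose in ARID1A-KO cells, and the other 4 genes did not pass the test. MLH3 was 1.41-fold and PMS2 1.23-fold of WT. EXO1 was at 1.10-fold, PMS1 at 0.94-fold, MSH6 at 0.93-fold and MSH3 at 0.98-fold. A gene was called at an adjusted p under 0.05 in the edgeR quasi-likelihood test, adjusted by Benjamini-Hochberg over all genes tested. By this rule 2 of 6 mismatch repair genes were called, beside 36.2% of all genes tested, so the pathway's share was near the background. Both were higher, beside 17.8% of all genes tested that were higher and 18.4% that were lower. The same 2 genes had no overlap between the 3 WT and the 3 ARID1A-KO values, beside 49.5% of all genes tested. The median log2 fold change of the 6 genes was 0.055, and that of all genes tested was 0.0066.

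**Figure D1:**
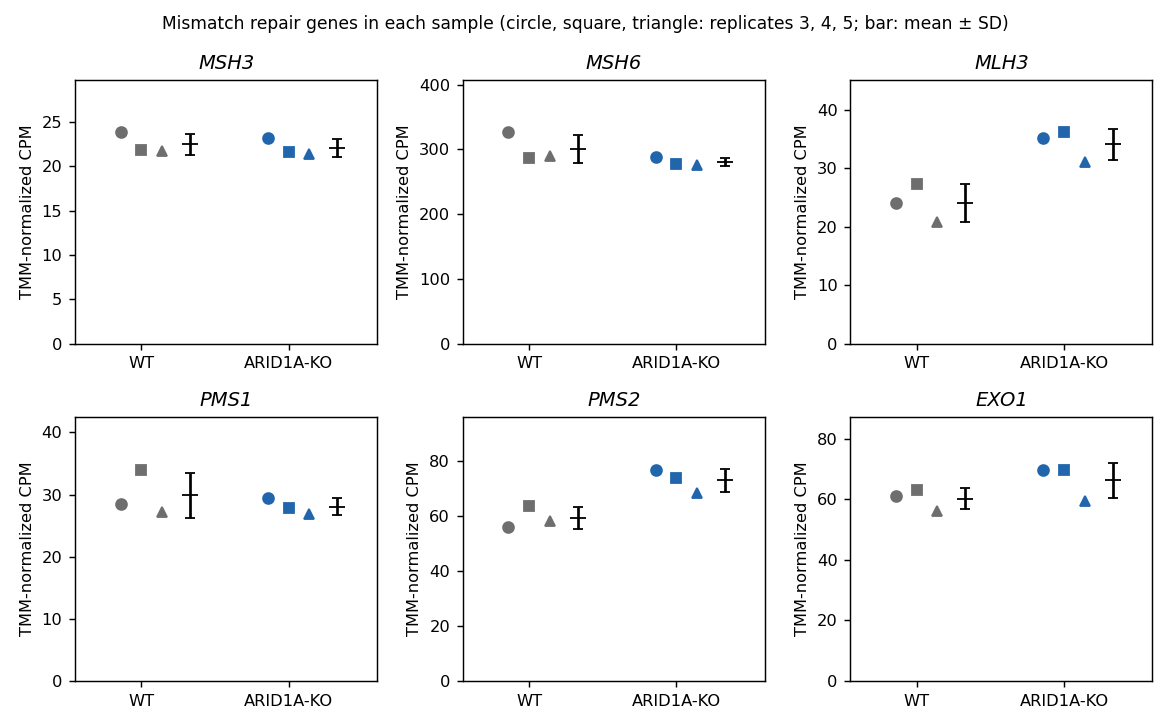
Library-scaled counts (CPM, y axis from 0) of each mismatch repair gene in the 3 WT (grey) and 3 ARID1A-KO (blue) samples, with the mean ± SD beside the points. MLH3 and PMS2 have all ARID1A-KO points above all WT points, and the points of the other 4 genes overlap.

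Reverse-stranded counts on genes came to between 54512105 and 84088708 per sample. Every mismatch repair gene had at least 1186 of them in each sample, the lowest value for MSH3, and the highest value was 24334 for MSH6. ARID1A itself fell from 173 ± 6.67 to 25.9 ± 1.38 CPM (SD, n = 3 in each genotype), where CPM are counts scaled to library size by TMM. Of the bone and mesenchymal markers, VIM and SPARC were abundant, whereas COL1A2 stayed under 0.1 TPM (the length-scaled level of the tables) in every sample and was close to absent. Between the genotypes 4 of these 6 markers were called, beside 36.2% of all genes tested. Their log2 fold changes were 0.84 for VIM, -0.89 for SPARC, -0.47 for COL1A1 and -2.45 for ALPL. All 4 blood cell markers and 3 of 4 epithelial markers were under 1 TPM in every sample.

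MSH3 (ENSG00000113318.9) lies on the plus strand at chr5:79950467-80172279 in GRCh37, and its main transcript has 24 exons. It had 23.8, 21.8 and 21.8 CPM in the WT samples and 23.2, 21.6 and 21.4 in the ARID1A-KO samples. The groups overlapped almost wholly. The log2 fold change was -0.027 (SE 0.075; edgeR quasi-likelihood test, adjusted p = 0.808), with a 95% interval from -0.20 to 0.14. MSH3 moved less than most genes, as 93.4% of the genes tested had a larger change in size.

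MSH6 (ENSG00000116062.10), on the plus strand at chr2:47922669-48037240, was by far the most abundant of the 6 genes. It had 326, 287 and 290 CPM in the WT samples and 289, 278 and 276 in the ARID1A-KO samples. WT replicate 3 stood above the other 5 samples, and ARID1A-KO replicate 3 lay between the other WT values. The log2 fold change of -0.10 (SE 0.068) became -0.047 without WT replicate 3 and did not pass the edgeR quasi-likelihood test (adjusted p = 0.283), and its 95% interval ran from -0.25 to 0.053. The gene model of the tables starts 87615 bp before the start of the main transcript, and its last 20786 bp overlap FBXO11 on the opposite strand. Forward-strand counts on MSH6 were 11% of its reverse-stranded counts, against 4.83% for MSH3 and under 0.2% for the other 4 genes. On the CPM scale they came to 33.1 ± 0.83 in WT samples and 31.1 ± 1.55 in the knockout.

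PMS2 (ENSG00000122512.10) lies on the minus strand at chr7:6012870-6048756 and has 15 exons in its main transcript. It had 55.9, 63.6 and 58.2 CPM in the WT samples and 76.7, 73.6 and 68.2 in the ARID1A-KO samples. The lowest ARID1A-KO value was above the highest WT value. PMS2 rose by a log2 fold change of 0.30 (SE 0.072; edgeR quasi-likelihood test, adjusted p = 0.0107), with a 95% interval from 0.13 to 0.46. With each sample left out, the change stayed between 0.25 and 0.35 and the adjusted p reached at most 0.0461. A change of this size was common, as 46.0% of the genes tested had a larger one.

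PMS2 shares long stretches with pseudogenes on the same chromosome, and reads can be split between such copies. The tables list 9 of them, of which 5 had enough counts to be tested. PMS2CL, the copy closest to the gene, had 13.6 ± 0.38 CPM in WT cells and 14.3 ± 0.30 CPM in the knockout. PMS2P1 had 15.6 ± 1.44 and 14.8 ± 0.58 CPM, and PMS2P4 3.59 ± 0.37 and 3.59 ± 0.13 CPM. PMS2P5 had 4.25 ± 0.35 and 5.00 ± 0.28 CPM, and PMS2P3 6.08 ± 0.48 and 6.94 ± 0.76 CPM. The genotypes did not overlap for PMS2P5 and PMS2P3, beside 49.5% of all genes tested. In the edgeR quasi-likelihood test 0 of the 5 copies were called, and 0 had an unadjusted p under 0.05, with log2 fold changes between -0.085 and 0.23. DESeq2 gave the same 5 copies adjusted p between 0.249 and 0.986. The other 4 copies (PMS2P2, PMS2P9, PMS2P10 and PMS2P11) averaged under 5 counts per sample. The part of shared reads in the rise of PMS2 was not tested.

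MLH3 (ENSG00000119684.11), on the minus strand at chr14:75480467-75518235, was the least abundant gene per length. It had 24.1, 27.4 and 20.8 CPM in the WT samples and 35.1, 36.2 and 31.1 in the ARID1A-KO samples. Every ARID1A-KO value was above every WT value. MLH3 rose by a log2 fold change of 0.50 (SE 0.106; edgeR quasi-likelihood test, adjusted p = 0.00553), with a 95% interval from 0.26 to 0.74. With each sample left out, the change lay between 0.40 and 0.60, and all 6 of these fits called it.

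PMS1 (ENSG00000064933.12), on the plus strand at chr2:190649107-190742355, had 28.6, 34.0 and 27.1 CPM in the WT samples and 29.5, 27.9 and 26.8 in the ARID1A-KO samples. WT replicate 4 was the one high value, and without it the change was 0.011 in place of -0.091 (SE 0.093; edgeR quasi-likelihood test, adjusted p = 0.484). The 95% interval with all samples ran from -0.30 to 0.12.

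EXO1 (ENSG00000174371.12), on the plus strand at chr1:242011269-242058450, had 61.2, 63.1 and 56.3 CPM in the WT samples and 69.6, 69.7 and 59.5 in the ARID1A-KO samples. ARID1A-KO replicates 3 and 4 were above every WT sample, and replicate 5 was below 2 of them. The log2 fold change of 0.14 (SE 0.080, 95% interval from -0.042 to 0.32) did not pass the edgeR quasi-likelihood test, with an adjusted p of 0.209. Without ARID1A-KO replicate 5 it was 0.21 with an adjusted p of 0.0425 in the same test, so whether EXO1 was called rested on that library.

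The neighbourhood of MLH3 moved with it. Within 5 Mb of its start lay 95 other genes that were tested, with a median log2 fold change of 0.39. Of these, 52 were called higher and 5 lower, beside 17.8% and 18.4% of all genes tested. Within 1 Mb, 27 of 29 genes were above 0 and 21 were called higher, with a median of 0.48. The median was 0.45 for the 29 genes at 1 to 2 Mb and 0.090 for the 37 genes at 2 to 5 Mb. Further out it was 0.18 for the 44 genes at 5 to 10 Mb and 0.14 for the 144 genes at 10 to 20 Mb. The nearest tested genes on either side rose as well. EIF2B2, a subunit of a translation initiation factor, went from 49.2 ± 2.50 to 74.5 ± 4.98 CPM (log2 fold change 0.60, edgeR quasi-likelihood test, adjusted p = 0.000226). ACYP1, an acylphosphatase, went from 9.0 ± 1.08 to 12.2 ± 1.09 CPM (0.43, adjusted p = 0.0164 in the same test).

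The medians around the other mismatch repair genes were smaller in size. They were -0.036 over 52 genes around MSH3, -0.11 over 41 around MSH6, -0.041 over 35 around PMS1, 0.051 over 92 around PMS2 and -0.13 over 37 around EXO1. For MSH3 and MSH6 this is near the gene's own change. For EXO1 it is about the size of the gene's own change but opposite in sign. Among neighbours with a mean log2 CPM over 1, the median was -0.084 over 36 genes around MSH3 and -0.11 over 29 around MSH6. It was 0.060 over 25 around PMS1, -0.0033 over 63 around PMS2 and -0.069 over 20 around EXO1. Around MLH3 it was 0.39 over 67 genes. The 8 genes within 1 Mb of EXO1 had a median of -0.63, and 2 of them were above 0. In a fit chosen after seeing the data, the median change of the genes within 5 Mb was taken off each gene before the test, as a fixed value whose own error was not counted. MLH3 then had a log2 fold change of 0.11 (SE 0.106) and was no longer called, with an adjusted p of 0.451 in the edgeR quasi-likelihood test. PMS2 stayed called at 0.25 (SE 0.072, adjusted p = 0.0285 in the same test). EXO1, whose neighbours were lower on balance, came to 0.27 (SE 0.080) and was called with an adjusted p of 0.0284 in the edgeR quasi-likelihood test. The value taken off EXO1 was the median of all 37 tested neighbours, those with low counts included. A fit with the smaller median of its 20 better expressed neighbours was not run. The counts of called mismatch repair genes were 2 in both fits, but they were PMS2 and MLH3 in one and PMS2 and EXO1 in the other.

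**Figure D2:**
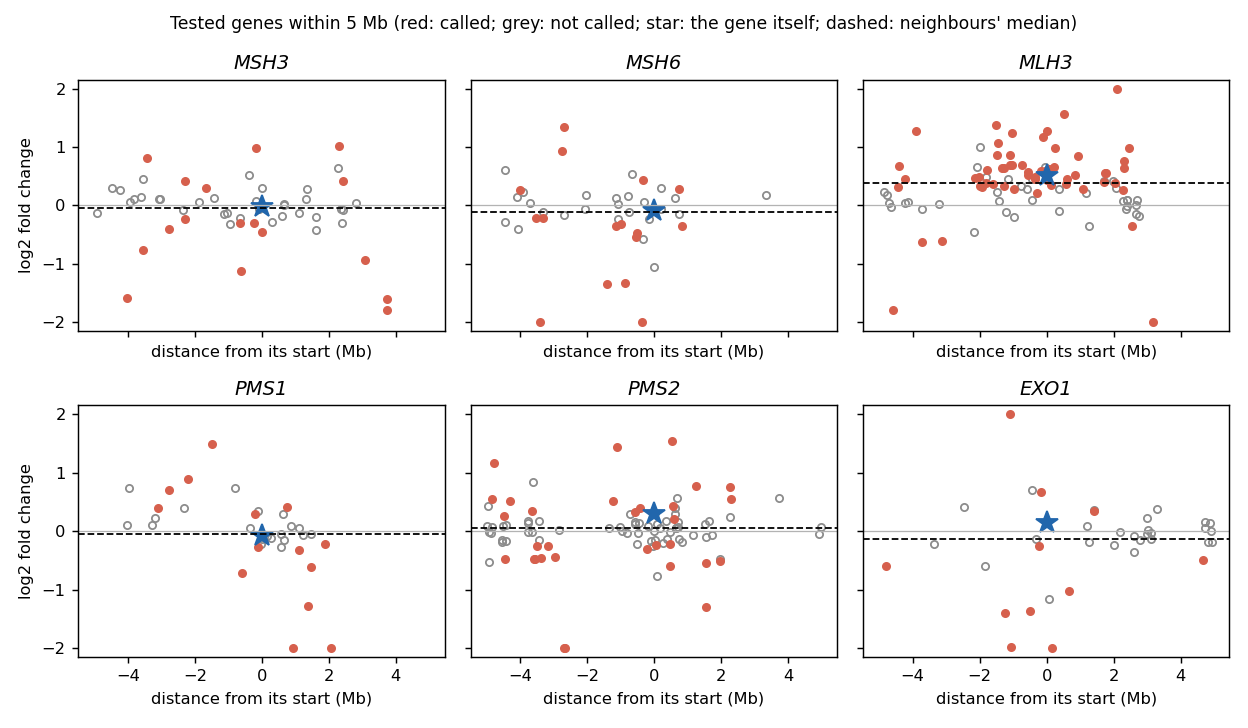
Log2 fold change (y axis) of the tested genes within 5 Mb of each mismatch repair gene against the distance of their starts (x axis, Mb), with changes beyond 2 in size drawn at the edge. The dashed median lies at 0.39 around MLH3, close to the star of MLH3 at 0.50, and near 0 around PMS2, whose star lies at 0.30.

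**Figure D3:**
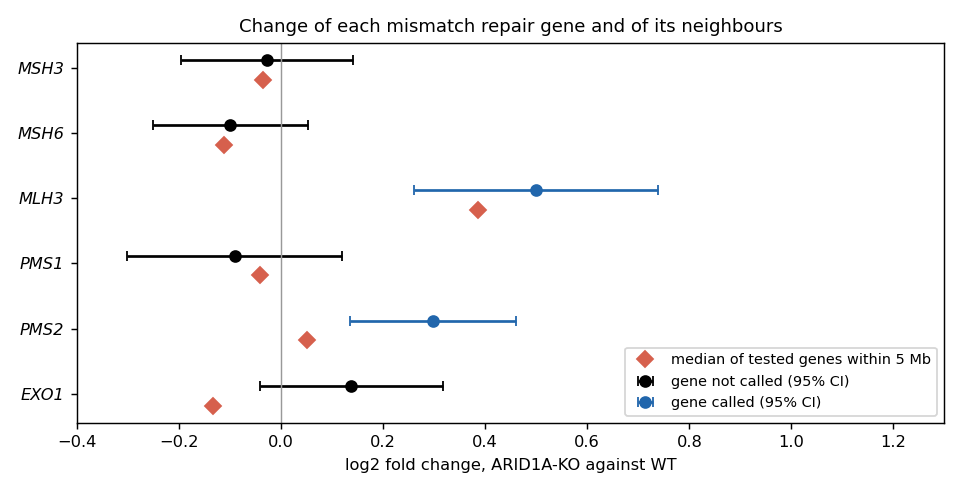
Log2 fold change of each mismatch repair gene (circles with 95% intervals) above the median of the tested genes within 5 Mb (diamonds). The intervals of MLH3 and PMS2 lie above 0, and the diamond of MLH3 lies inside the interval of the gene.

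PMS1 and PMS2 start head to head with another gene, whose values can be set beside those of the mismatch repair gene. AIMP2, a scaffold of the multi-tRNA synthetase complex, starts 120 bp from PMS2. It had 119, 128 and 118 CPM in the WT samples and 125, 121 and 117 in the ARID1A-KO samples, which overlapped. Its log2 fold change was -0.0033 (SE 0.061; edgeR quasi-likelihood test, adjusted p = 0.973), beside 0.30 for PMS2. The ratio of PMS2 to AIMP2 counts went from 0.487 ± 0.014 to 0.60 ± 0.017 without overlap (SD, n = 3 each). ORMDL1, a regulator of sphingolipid synthesis, starts 10 bp from PMS1. Its log2 fold change of -0.13 (adjusted p = 0.117 in the same test) stood beside -0.091 for PMS1, and their ratio overlapped between the genotypes. These pairs had been named by position, but the ratios were taken after their values were seen and were given no test.

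The starts of the 6 genes differ in the short sequences around them. RefSeq promoter windows, from 250 bases before to 50 after a start, were found for all 6 genes and matched to 1 place each in GRCh37. The letters TTTCCCGC, TTTCGCGC, TTTGCCGC and TTTGGCGC of the E2F site, read on both strands, were in the first window of MSH3, MSH6, PMS2 and EXO1, and in 3.31% of the 35116 human windows of the same length. E2F factors drive genes of DNA replication at the start of S phase. Stretches of 30 bases from 3 of these genes show the letters in capitals, each printed along the strand of its gene.

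MSH6, chr2:48010276-48010305, plus strand: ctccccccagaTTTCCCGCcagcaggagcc

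PMS2, chr7:6048762-6048791, minus strand: cgggaagtattTTTGCCGCcccgcccggaa

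EXO1, chr1:242011499-242011528, plus strand: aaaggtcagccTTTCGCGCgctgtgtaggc

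Of the 4 genes with these letters PMS2 was called, and the log2 fold changes of the other 3 lay between -0.10 and 0.14. The E2F letters of PMS2 and MSH3 lie 43 and 107 bases before the start, and those of MSH6 and EXO1 begin at bases 4 and 5 from it. All positions are counted from the start of a gene's first window. For PMS2 that is chr7:6048737, whereas its main transcript starts at chr7:6048680, the start of another of its windows. MSH3 has the letters again on the other strand, in an overlapping match. MLH3 had no E2F letters in this window. It held the core of the NRF1 site, GCGCATGC, 3 times on the 2 strands, of which a pair overlap. NRF1 drives many housekeeping and mitochondrial genes, and its core was in 3.05% of all windows. None of the other 5 genes had it in its first window. The 2 stretches of MLH3 begin their capitals 55 and 10 bases before the start.

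MLH3, chr14:75518207-75518236, minus strand: gaacaactggtGCGCATGCgcactggtgtc

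MLH3, chr14:75518162-75518191, minus strand: ccccctccgaaGCGCATGCtcgtgggcacg

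The cAMP response element TGACGTCA, in 1.85% of all windows, was in the windows of EXO1 and PMS2, where it begins 54 and 104 bases before the start. CCAAT boxes (CCAAT, in 34.6% of all windows) were in those of MSH6, PMS1 and PMS2. GC boxes (GGGCGG, in 45% of all windows) were in all but that of MLH3. The 250 bases before the start of MLH3 were 47.2% G and C, beside 59.6% for PMS2, 65.6% for EXO1, 69.6% for MSH3, 71.2% for PMS1 and 81.2% for MSH6. The motifs were chosen after these windows had been read, and they are a description of letters.

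EXO1, chr1:242011441-242011470, plus strand: gggatacgcgtTGACGTCAcatcctctggg

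PMS2, chr7:6048823-6048852, minus strand: cccaggctcttTGACGTCAcgaagtcgacc

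Levels of different genes were compared per length, in the TPM of the tables. In WT cells MSH6 had 91.6 ± 7.66 TPM, PMS2 49.4 ± 2.99, EXO1 47.8 ± 3.02, PMS1 19.0 ± 2.27, MSH3 15.7 ± 0.99 and MLH3 9.47 ± 1.3 (SD, n = 3). PMS2 and EXO1 overlapped in WT cells. In ARID1A-KO cells the order was the same, with 85.0 ± 1.41, 60.4 ± 1.53, 52.3 ± 3.27, 17.8 ± 0.24, 15.3 ± 0.27 and 13.3 ± 0.77 TPM, and no neighbours in the order overlapped. The order depends on the length that each gene is given. The tables give MSH6 an exonic length of 10805 bases, which is 2.53 times its main transcript of 4265 bases. Rescaled to the main transcripts, MSH6 had 232 ± 19.4, EXO1 57.3 ± 3.62, PMS2 38.2 ± 2.31, PMS1 31.1 ± 3.70, MSH3 16.6 ± 1.05 and MLH3 10.1 ± 1.39 TPM in WT cells, so that EXO1 stood above PMS2. For PMS2 alone the exonic length, 3936 bases, is shorter than the main transcript, 5093 bases. Its rescaled value sets counts on the shorter length over the longer one and can be too low.

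Ratios within a sample set genes that compete for a shared partner beside each other. The ratio of MSH6 to MSH3 TPM was 5.97, 5.74 and 5.80 in the WT samples and 5.43, 5.62 and 5.64 in the ARID1A-KO samples, a difference of -0.070 in the mean log2 ratio. PMS2 to PMS1 was 2.56, 2.45 and 2.81 in WT and 3.40, 3.46 and 3.33 in ARID1A-KO samples, a difference of 0.38. PMS2 to MLH3 was 4.92, 4.93 and 5.94 in WT and 4.63, 4.33 and 4.66 in ARID1A-KO samples, a difference of -0.21. The genotypes did not overlap in any of the 3 ratios. The two-sided exact permutation test gave p = 0.1 for each, also after Benjamini-Hochberg adjustment over the 3 ratios, which is the smallest p that 3 samples against 3 allow, so none of them could pass the threshold. The PMS2 to MLH3 ratio rested most on 1 sample, and without WT replicate 5 the difference was -0.12. Rescaling to the main transcripts changed the ratios themselves, with 14.0 and 13.3 for MSH6 to MSH3, but not their differences between genotypes.

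**Figure D4:**
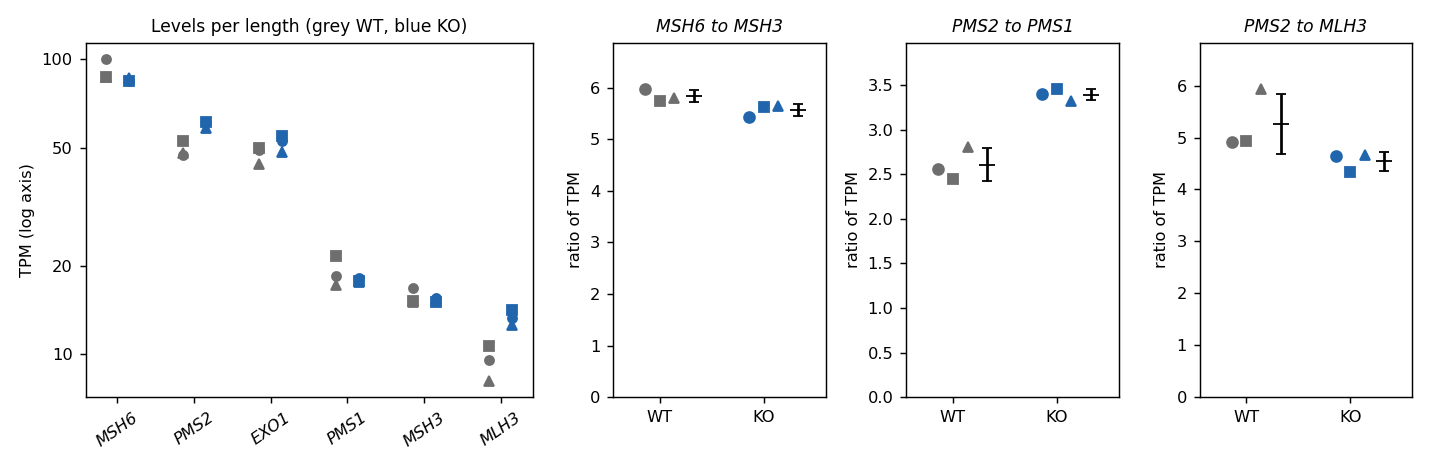
TPM of the mismatch repair genes (left, log axis) in WT (grey) and ARID1A-KO (blue) samples, and 3 ratios of TPM within a sample (y axes from 0) with mean ± SD; circle, square and triangle are replicates 3, 4 and 5. PMS2 to PMS1 lies between 2.45 and 2.81 in WT and between 3.33 and 3.46 in ARID1A-KO samples.

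The genes that carry out the later steps of mismatch repair moved in both directions. Of 15 partner genes tested, 2 were called higher and 3 lower, a share of 33.3% beside 36.2% of all genes tested, and their median log2 fold change was -0.074. POLD1, the catalytic subunit of polymerase delta, had 122 ± 20 CPM in WT cells and 86.9 ± 7.12 CPM in the knockout and fell by 0.49 on the log2 scale (SE 0.11; edgeR quasi-likelihood test, adjusted p = 0.00782). POLD4, its smallest subunit, rose by 0.87 from a low level of 3.22 ± 0.36 CPM (adjusted p = 0.00237 in the same test). Subunits of RPA, which coats the exposed single strand, went opposite ways. RPA1 fell by 0.31 and RPA2 rose by 0.51, whereas RPA3 had -0.069 and did not pass the test. RFC4, a subunit of the clamp loader, fell by 0.38, and the other 4 RFC genes had values between -0.17 and 0.082 that did not pass. RFC4 was no longer called with the median change within 5 Mb taken off (edgeR quasi-likelihood test, adjusted p = 0.065). PCNA, the clamp itself, had 242 ± 13.9 and 259 ± 14.9 CPM, which overlapped. LIG1, which seals the nick, had a log2 fold change of -0.24 with an adjusted p of 0.127 in this test. It was called with the regional median taken off (-0.38, adjusted p = 0.027 in the edgeR quasi-likelihood test), with no filter on low counts (adjusted p = 0.0098), and without WT replicate 4 or ARID1A-KO replicate 5 (adjusted p = 0.045 and 0.038).

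Among genes that assist the pathway, SETD2 and MCM9 were called and FAN1 was not. SETD2, the methyltransferase whose H3K36me3 mark is bound by MSH6, had 123 ± 7.71 CPM in WT cells and 102 ± 3.82 CPM in the knockout and fell by 0.27 on the log2 scale (SE 0.066; edgeR quasi-likelihood test, adjusted p = 0.0102). The call was lost with an offset on exonic length (adjusted p = 0.123 in that test) and without ARID1A-KO replicate 4 (adjusted p = 0.054). MCM9, a helicase of mismatch repair, rose by 0.37 (adjusted p = 0.00417 in the same test). FAN1, a nuclease that binds MutL proteins, had 44.6 ± 5.86 and 45.8 ± 0.22 CPM. The meiotic MutS genes were near the lower limit of the libraries. MSH4 went from 1.55 ± 0.62 to 0.59 ± 0.21 CPM (log2 fold change -1.35, edgeR quasi-likelihood test, adjusted p = 0.0109), and MSH5 from 5.23 ± 1.57 to 5.77 ± 0.45 CPM (adjusted p = 0.629).

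**Figure D5:**
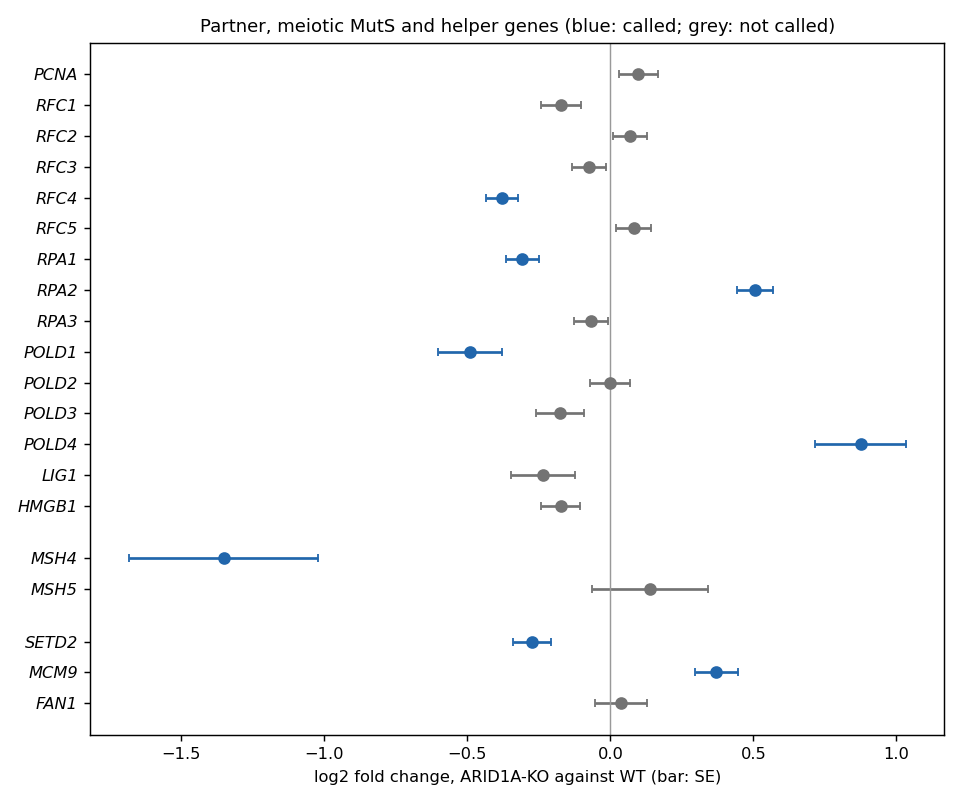
Log2 fold change with its SE (x axis) of 15 partner genes, 2 meiotic MutS genes and 3 helper genes, in blue where called and in grey where not. POLD4, RPA2 and MCM9 lie to the right of 0 among the called genes, and POLD1, RFC4, RPA1, SETD2 and MSH4 to the left.

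Mismatch repair genes are used most by cells that replicate their DNA, so genes of the cell cycle were read beside them. Of 12 S phase genes, 4 were called higher and 5 lower, a share of 75% beside 36.2% of all genes tested, with a median of -0.12. E2F1 rose by 0.60 (edgeR quasi-likelihood test, adjusted p = 9.63e-05), and CDT1 by 0.42. CCNE2 fell by 0.66, MCM2 by 0.47 and MCM3 by 0.42. With the median change within 5 Mb taken off, MCM2, MCM3 and CDT1 were not called (adjusted p = 0.466, 0.130 and 0.889 in the same test). Of 8 G2 and M phase genes, CCNA2 was called, with a fall of 0.28, a share of 12.5% beside the same 36.2%, and the median was -0.16. With the regional median taken off, 7 of the 12 S phase genes were called, 2 higher and 5 lower, and 5 of the 8 G2 and M phase genes, 1 higher and 4 lower, beside 6286 of all 19599 genes tested. CDK1 turned from 0.11, not called, to -0.17 (edgeR quasi-likelihood test, adjusted p = 0.043), and MKI67 (-0.21, adjusted p = 0.042), PLK1 (-0.31, adjusted p = 0.031) and BUB1 (0.19, adjusted p = 0.030) were called as well. The part of the cell cycle in the changes of PMS2 and MLH3 was not tested.

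Across the 6 samples, MLH3, PMS2 and EXO1 had patterns like each other. Pearson's r of their log2 CPM was 0.939 for MLH3 with PMS2, 0.858 for MLH3 with EXO1 and 0.792 for PMS2 with EXO1, and MSH3 with MSH6 had 0.849. The samples fall into 2 genotypes, so these values describe mostly the step between them in the genes that rose. Of 13080 genes with a mean log2 CPM over 1, the most like MLH3 were RP11-296I10.6 (r = 0.999), SYT14 (0.998) and EZH1 (0.998). For PMS2 CDK1 (0.999) and TOX4 (0.998) were among the 3 most alike, and for EXO1 GARS (0.993) and LARP4B (0.993). For MSH3 they were APOOL (0.994), SNX2 (0.989) and SYNJ2BP (0.989), for MSH6 SPIN3 (0.984), PHAX (0.978) and ZMYM5 (0.977), and for PMS1 ELTD1 (0.987), DBT (0.982) and ERMARD (0.981). An r over 0.9 was found for 1373 genes with PMS2, 1109 with MLH3, 335 with EXO1, 109 with MSH6, 75 with PMS1 and 32 with MSH3.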

How the data were processed

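RNA was read as paired 100 bp reads from 3 WT and 3 ARID1A-KO samples. The authors aligned reads to GRCh37 with STAR and counted them per gene with featureCounts, whose versions are not given in the sources used here. The deposited counts are whole numbers without normalization, by strand and regardless of strand, and the deposited TPM values were scaled by exonic length and library size. The methods name a total RNA kit and the labels polyA RNA. Forward-strand counts were 5.83% to 6.15% of the reverse-stranded counts, which were used.

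Genes were filtered with filterByExpr, scaled by TMM and compared with the quasi-likelihood test of edgeR 4.0.16 (limma 3.58.1, R 4.3.3) on all 6 samples without a covariate, called at a Benjamini-Hochberg adjusted p under 0.05, the study's threshold. The common BCV was 0.111. Counts of replicates differed beyond sampling noise in every pair (chi-square of 7.57 or more per gene). TPM ratios were compared by exact permutation over samples (SciPy 1.17.1, Python 3.11.15). The scripts were tested on simulated data.

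The genes, lists and tests were chosen with earlier results of these data known. The genes named are the 6 mismatch repair genes, ARID1A, genes that overlap them, start within 2 kb or lie nearest to them, PMS2 copies, up to 5 called genes of each list, and the 3 genes most like each. List genes that were not called are named beside them and were chosen after their values were seen. Alternatives were unstranded counts, RLE, DESeq2 1.42.0, 2 count filters, the replicate block, an offset on exonic length (loess, span 0.3), each sample left out, a threshold of 0.01, 3 settings of TPM and, added after seeing the data, main transcript lengths and the median change within 5 Mb taken off. Main transcripts are those of GENCODE v44lift37, and promoter windows come from RefSeq (GRCh38.p14). The results of some genes named by these rules are not reported here.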

Additional observations from a re-analysis of the deposited data

How the results depend on the processing

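At a threshold of 0.05, PMS2 stayed called in all 14 alternative fits, with adjusted p between 0.00196 and 0.0461, and MLH3 in 13 of 14. At a threshold of 0.01, 1 of the 6 mismatch repair genes was called, which was MLH3. With the median change within 5 Mb taken off, MLH3 came to 0.11, EXO1 to 0.27, MSH3 to 0.0089 and MSH6 to 0.011. With an offset on exonic length MSH6 came to 0.046. Leaving out 1 sample gave -0.062 to 0.0073 for MSH3, -0.13 to -0.047 for MSH6, -0.16 to 0.011 for PMS1 and 0.089 to 0.21 for EXO1. MSH3 was above 0 without WT replicate 3, PMS1 without WT replicate 4, and EXO1 was called without ARID1A-KO replicate 5. None of these turned values of MSH3, MSH6 and PMS1 was called, and why they turned was not tested. Partner genes called numbered 5 or 6 throughout, and the 3 ratios kept their direction. With the replicate block, MLH3 had 0.51 and PMS2 0.30, 2 mismatch repair genes were called, and LIG1 was called among the partner genes (adjusted p = 0.026 in edgeR). Over all genes the block gave 7477 calls in place of 7099. Deviations of same-numbered samples correlated at -0.244, 0.49 and 0.322, and not every sample correlated best with its own number, so the numbers were not taken to pair the samples.

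With 3 samples a group, the 95% intervals of MSH3, MSH6, PMS1 and EXO1 leave room for changes of up to -0.20, -0.25, -0.30 and 0.32 on the log2 scale.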
